A study of Caenorhabditis elegans with 8 samples.

Results

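The major sperm proteins (MSPs) of Caenorhabditis elegans are encoded by genes whose symbols start with msp-, and 31 of the 46093 genes in the deposited gene table carry such a symbol. All 31 are kept here, whatever their level, and they are described by genomic cluster, by level and as a sum over the near-identical copies. The libraries are poly(A) RNA-seq of whole worms, 4 from a strain labelled atf-6 and 4 from the wild-type strain N2. All worms were day 1 adults grown at 20 °C for 72 h from synchronized first-stage larvae, about 1000 per replicate, and per the labels the replicates were independent. The labels name no atf-6 allele. ATF-6 is a membrane-anchored transcription factor of the unfolded protein response in the endoplasmic reticulum.

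MSPs are small cytoskeletal proteins found in nematode sperm. They polymerize into filaments that push the sperm forward as it crawls, a role that actin has in other crawling cells. During spermatogenesis they are packed into fibrous bodies, and mature sperm also release MSP as a signal that starts oocyte maturation and ovulation. A hermaphrodite makes its sperm in the last larval stage, stores them and then switches to oocytes, and mature sperm are transcriptionally silent.

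Depth was 12664222 to 21698298 estimated counts per library, of which the MSP family took 4104 to 5705 counts in atf-6 libraries and 1323 to 3196 counts in wild-type libraries. The atf-6 transcript itself had 16.04, 15.1, 14.7 and 14.1 CPM (read counts brought to 1 library size) in the libraries labelled atf-6, against 10.8, 12.8, 13.2 and 12.5 CPM in wild-type libraries. By edgeR's quasi-likelihood test its log2 fold change was 0.28 (SE 0.0911) and its adjusted p was 0.346, so the level of this transcript does not check the strain labels. Fold changes are atf-6 over wild type throughout, and a gene is said to have risen or fallen where its p, adjusted by Benjamini-Hochberg over all 12375 genes tested, was under 0.05.

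The MSP genes were higher in atf-6 worms as a family. Of the 28 members with enough counts to be tested, 13 rose and 0 fell, which leaves 15 short of the threshold. Of all tested genes, 0.711% were called higher and 0.105% were called lower. The median log2 fold change of the 28 members was 1.12, with a range of 0.84 (msp-49) to 1.61 (msp-53), against a median of 0.00191 over all genes tested. A positive log2 fold change was found for 28 of the 28, where 50.7% of all genes had one. The libraries of the strains did not overlap for 26 of the 28, with atf-6 the higher, and this held for 3.77% of all genes. The exceptions were msp-113 and msp-65. Near-identical copies can share reads, so the 28 members are not 28 independent measurements. In bulk RNA of whole worms, more (or fewer) sperm-forming cells and more (or less) MSP RNA per cell cannot be told apart. The number of members called depended on single libraries: it was 2, 4, 3 and 0 when atf-6 replicate 1, 2, 3 or 4 was left out, and 1, 2, 18 and 0 when wild-type replicate 1, 2, 3 or 4 was left out. The share of all genes called higher moved too, being 0.19%, 0.245%, 0.257% and 0.112% without atf-6 replicates 1 to 4. Without wild-type replicates 1 to 4 this share was 0.166%, 0.271%, 0.724% and 0.0954%. With plain sums of transcript reads in place of the gene table, 1 member and 0.244% of all genes were called higher. All 28 log2 fold changes stayed positive in each of these fits.

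The 31 members added up to 387, 239, 273 and 271 CPM in the 4 atf-6 libraries, in order of replicate number. In wild-type libraries they added up to 100.5, 150.4, 176 and 104.5 CPM. No wild-type library reached the lowest atf-6 library, and atf-6 replicate 1 stood above the other atf-6 libraries. The means were 292 ± 64.9 CPM in atf-6 worms and 133 ± 36.7 CPM in wild-type worms (SD, n = 4 each), a ratio of 2.20 and a log2 ratio of 1.14. Without atf-6 replicate 1 the log2 ratio was 0.97. As a share of all counts, the family made up 0.0236% to 0.0368% in atf-6 libraries and 0.0104% to 0.0161% in wild-type libraries.

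**Figure D1:**
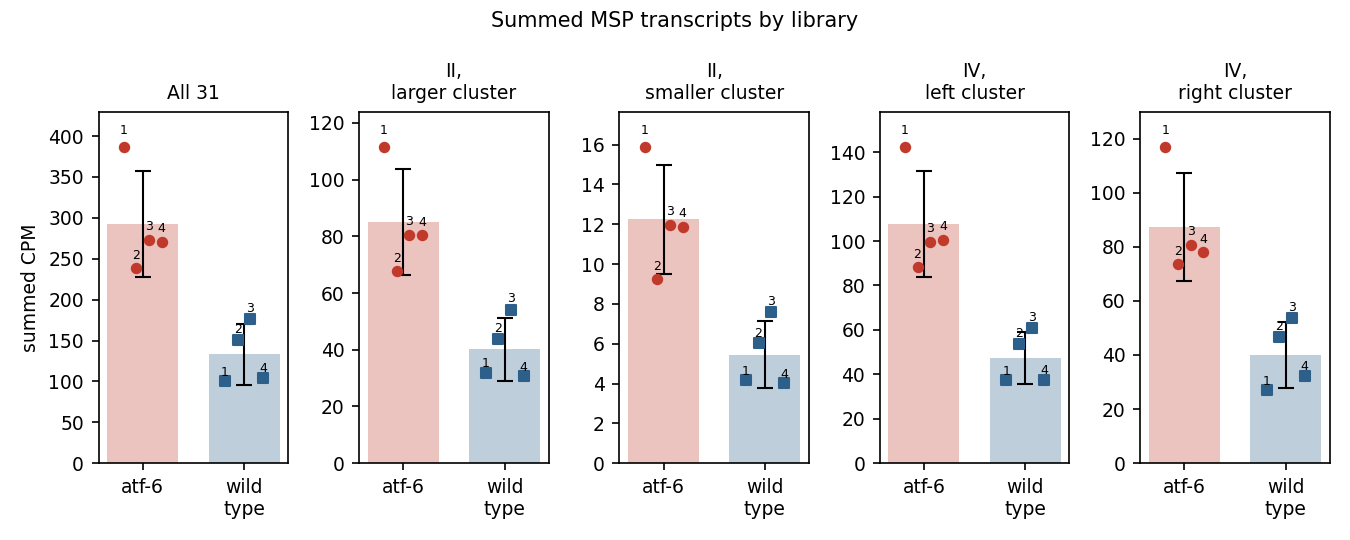
Summed CPM of the MSP genes in each library (points, numbered by replicate), for all 31 members and for each genomic cluster, with bars at the group mean and error bars of 1 SD (n = 4 libraries per strain; axes start at 0 and differ between panels). In every panel the 4 atf-6 libraries lie above the 4 wild-type libraries, and atf-6 replicate 1 is the highest of all.

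The transcript with the most counts was msp-57 (WBGene00003450, chromosome IV, 5062578 to 5062961 on the plus strand, build WBcel235). It had 29.4, 20.1, 21.96 and 23.4 CPM in atf-6 replicates 1 to 4, against 9.41, 13.9, 10.1 and 7.14 CPM in wild-type replicates 1 to 4. The strains did not overlap, the closest libraries being atf-6 replicate 2 and wild-type replicate 2. The log2 fold change was 1.22 (SE 0.189, adjusted p = 0.0242 by edgeR). This gene led the family in 6 of the 8 libraries by CPM, and msp-59 led it in wild-type replicates 3 and 4.

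msp-59 (WBGene00003452, chromosome IV, 5312728 to 5313111, minus strand) had 26.9, 15.6, 18.3 and 17.5 CPM in atf-6 libraries, against 6.38, 9.79, 12.2 and 7.83 CPM in wild-type libraries. It rose, the log2 fold change being 1.10 (SE 0.212, adjusted p = 0.0457 by edgeR), and its strains were apart. With all genes kept in the fit, whatever their counts, its adjusted p was 0.0581, short of a call.

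msp-31 (WBGene00003429, chromosome II, 4916179 to 4916562, minus strand) stood at 23.2, 13.2, 19.1 and 17.3 CPM in atf-6 libraries, against 5.69, 8.90, 11.5 and 6.68 CPM in wild-type libraries. Wild-type replicate 3 was the highest of its strain and came close to atf-6 replicate 2, but no libraries crossed. The log2 fold change was 1.15 (SE 0.219, adjusted p = 0.0457 by edgeR), and with all genes kept in the fit its adjusted p was 0.0586.

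msp-19 (WBGene00003426, chromosome IV, 5260589 to 5260972, plus strand) measured 21.3, 13.0, 14.3 and 14.4 CPM in atf-6 libraries, against 6.15, 7.95, 8.60 and 6.13 CPM in wild-type libraries. Its wild-type libraries varied least among the members, with a coefficient of variation of 17.5%. The log2 fold change was 1.12 (SE 0.175, adjusted p = 0.0242 by edgeR). These 4 genes are the only members with a mean of at least 10 CPM over the 8 libraries. All 4 of them rose, where 0.711% of all tested genes did. msp-78, at 9.99 CPM, lay just under 10 CPM.

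msp-55 (WBGene00003448, chromosome IV, 5055631 to 5056014, minus strand) had 10.97, 8.45, 7.61 and 8.27 CPM in atf-6 libraries, against 2.81, 2.87, 5.29 and 3.64 CPM in wild-type libraries. Its strains did not overlap, and the log2 fold change was 1.27 (SE 0.202, adjusted p = 0.0270 by edgeR). msp-53 (WBGene00003446, chromosome IV, 5064678 to 5065061, minus strand) had 5.45, 2.80, 5.41 and 4.75 CPM in atf-6 libraries, against 0.987, 1.84, 2.04 and 1.11 CPM in wild-type libraries. Here atf-6 replicate 2 was the low library of its strain, still above every wild-type library. Its log2 fold change of 1.61 (SE 0.275, adjusted p = 0.0327 by edgeR) was the highest of the 28 tested. With msp-57 and msp-19, these are the 4 members of smallest adjusted p, and all 4 lie in 1 cluster on chromosome IV.

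**Figure D2:**
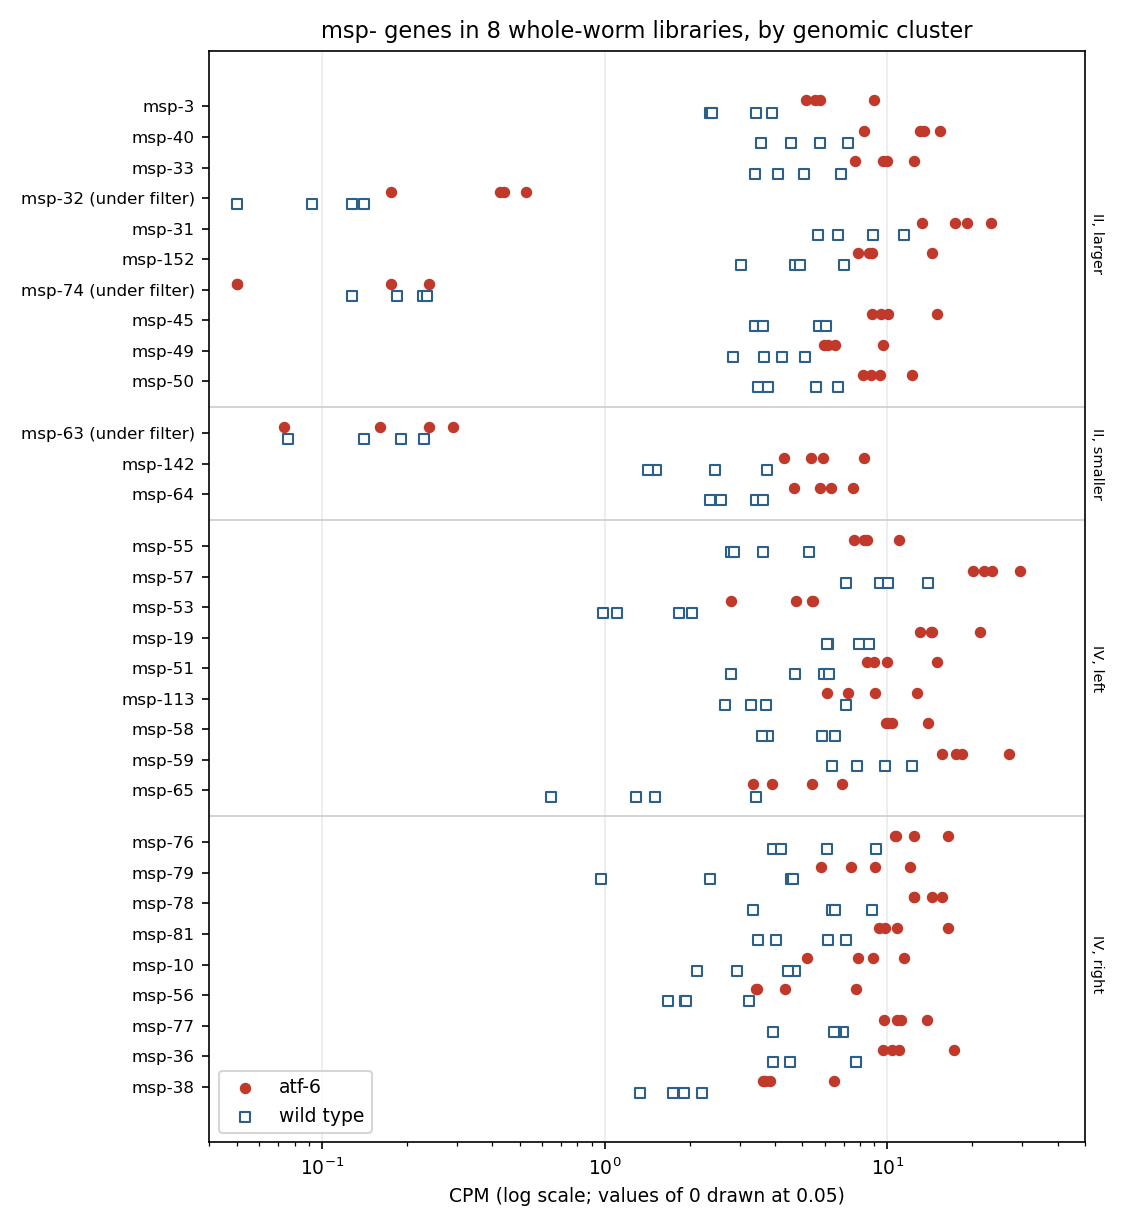
CPM of the 31 MSP genes in the 8 libraries on a log axis, in genomic order within the 4 clusters (atf-6 libraries as filled circles above, wild-type libraries as open squares below, values of 0 drawn at 0.05). For the 28 tested genes the circles lie to the right of the squares, with overlap at msp-113 and msp-65, and the 3 genes under the filter lie below 1 CPM.

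The 15 tested members that did not pass had log2 fold changes of much the same size as the 13 that did, and larger errors. Members that passed had log2 fold changes of 0.90 to 1.61 with SEs of 0.172 to 0.275 (median 0.212). Members that did not pass had log2 fold changes of 0.84 to 1.53 with SEs of 0.206 to 0.408 (median 0.250), and their edgeR adjusted p ran from 0.0634 to 0.227. All 28 had an unadjusted p under 0.05 with a positive fold change, which held for 5.39% of all genes tested. DESeq2 called 26 of the 28 higher, where it called 1.24% of the genes it tested higher. The exceptions were msp-113 (adjusted p = 0.0632 by DESeq2) and msp-56 (adjusted p = 0.0519 by DESeq2).

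Besides the 6 genes above, msp-40, msp-45, msp-64, msp-58, msp-78, msp-77 and msp-38 rose, with log2 fold changes of 0.90 (msp-77) to 1.27 (msp-38). The widest errors among those that did not pass belonged to msp-65 and msp-79. msp-65 had 6.92, 3.91, 5.41 and 3.36 CPM in atf-6 libraries, against 1.29, 1.51, 3.44 and 0.645 CPM in wild-type libraries. Wild-type replicate 3 lay inside the atf-6 range. The log2 fold change was 1.53 (SE 0.408, adjusted p = 0.175 by edgeR). msp-79 had 12.1, 7.46, 9.04 and 5.82 CPM in atf-6 libraries, against 2.35, 4.57, 4.65 and 0.968 CPM in wild-type libraries, where wild-type replicate 4 was far below the others. Its log2 fold change was 1.45 (SE 0.392, adjusted p = 0.181 by edgeR). For msp-113, the other member with overlap, the atf-6 libraries lay at 6.12 to 12.7 CPM and the wild-type libraries at 2.67 to 7.13 CPM. msp-65 and msp-79 are named here after their values were seen.

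**Figure D3:**
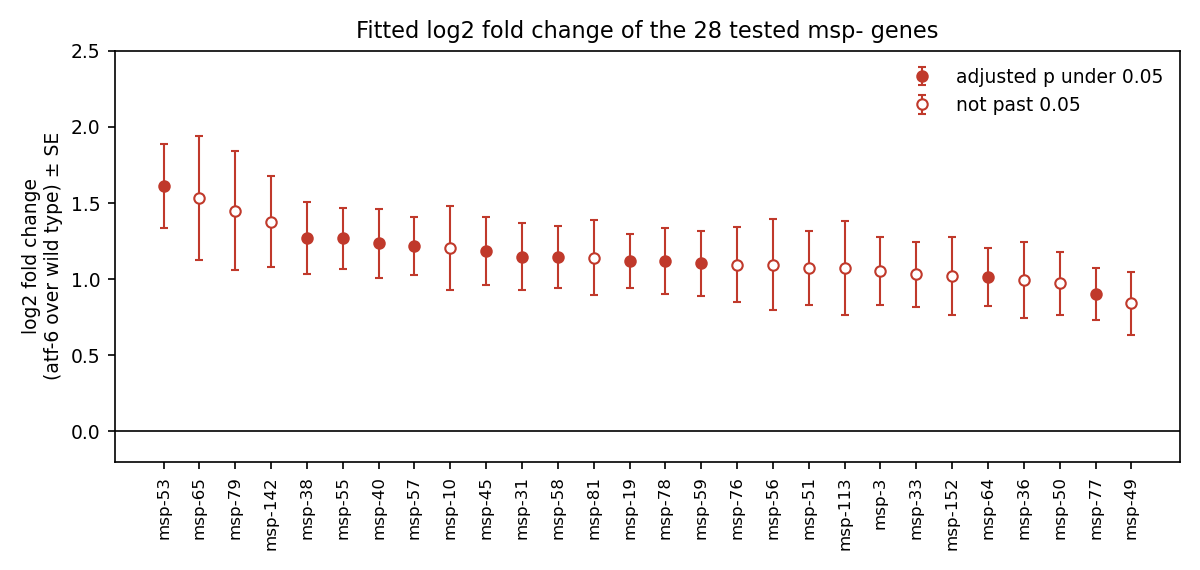
Log2 fold change (atf-6 over wild type) of the 28 tested MSP genes with its SE, sorted by size; filled points had an edgeR adjusted p under 0.05 and open points did not. Filled and open points share the range of about 0.84 to 1.61, and the widest error bars are those of msp-65 and msp-79.

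Of the 31 members, 3 did not reach the count filter, and all 3 were near the detection limit in both strains. msp-32 (chromosome II) had 3 to 11 counts in atf-6 libraries and 0 to 3 counts in wild-type libraries. msp-63 (chromosome II) had 1 to 5 counts in each strain, and msp-74 (chromosome II) had 0 to 5 counts in atf-6 libraries and 2 to 5 counts in wild-type libraries. msp-63 and msp-74 overlapped between the strains. Each of the 28 tested members was above the filter level of 0.564 CPM in all 8 libraries, so no member entered the test through 1 strain alone.

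The 31 genes fell into 4 genomic clusters when neighbours at most 500 kb apart were joined. The larger cluster on chromosome II (4785898 to 5200180, build WBcel235) holds 10 members, msp-3, msp-40, msp-33, msp-32, msp-31, msp-152, msp-74, msp-45, msp-49 and msp-50. Of its 8 tested members 3 rose, where 0.711% of all tested genes did, and the median log2 fold change of the 8 was 1.04. The smaller cluster on the same chromosome (5797065 to 5810330) holds msp-63, msp-142 and msp-64, of which 2 were tested and 1 rose (msp-64). The left cluster on chromosome IV (5055631 to 5316906) holds msp-55, msp-57, msp-53, msp-19, msp-51, msp-113, msp-58, msp-59 and msp-65. Of these 9, 6 rose, with a median of 1.15 over the 9. The right cluster on chromosome IV (9689015 to 10143740) holds msp-76, msp-79, msp-78, msp-81, msp-10, msp-56, msp-77, msp-36 and msp-38. Of these 9, 3 rose, with a median of 1.12.

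The counts of called members differed between the clusters, but the summed change was close to the same in each. The larger chromosome II cluster summed to 85.1 ± 18.7 CPM in atf-6 worms and 40.1 ± 11.1 CPM in wild-type worms (SD, n = 4 each), a ratio of 2.12. The ratio was 2.25 for the smaller chromosome II cluster, 2.28 for the left chromosome IV cluster and 2.19 for the right one. With each cluster entered as 1 feature in the edgeR fit, a setting added after the data were seen, the log2 fold change was 1.08 (SE 0.195) for the larger and 1.16 (SE 0.219) for the smaller chromosome II cluster, and 1.18 (SE 0.186) for the left and 1.12 (SE 0.212) for the right chromosome IV cluster. No difference between clusters was tested. The clusters were measured in the same libraries, so these SEs do not measure the spread of a difference between clusters. The left chromosome IV cluster made up 36.9% ± 0.284 of the family sum in atf-6 libraries and 35.8% ± 1.08 in wild-type libraries (SD, n = 4 each). The shares of all 4 clusters overlapped between the strains.

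Single members' shares of the family sum were also set side by side, without a test of a difference. Each member's share overlapped between atf-6 and wild-type libraries, for 28 of the 28 tested members. msp-57 made up 8.16% ± 0.452 of the sum in atf-6 libraries and 7.79% ± 1.82 in wild-type libraries (SD, n = 4 each). The mean shares of msp-53, msp-65 and msp-79 lay further apart: msp-53 made up 1.58% ± 0.360 in atf-6 libraries and 1.10% ± 0.105 in wild-type libraries. msp-65 made up 1.66% ± 0.314 in atf-6 libraries and 1.21% ± 0.563 in wild-type libraries, and msp-79 2.92% ± 0.526 in atf-6 libraries and 2.24% ± 0.918 in wild-type libraries. The 4 members of at least 10 CPM together made up 25.9% to 27.01% in atf-6 libraries and 24.0% to 27.5% in wild-type libraries. The 24 members at 1 to under 10 CPM summed to 214.6 ± 48.5 CPM in atf-6 worms and 97.9 ± 28.9 CPM in wild-type worms (SD, n = 4 each). Of these 24, 9 rose, where 0.711% of all tested genes did. The median log2 fold change of the 24 was 1.11, against 1.13 for the 4 members above them.

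The members moved together from library to library within a strain. Near-identical copies can share reads, and the part of shared reads in this agreement was not tested. atf-6 replicate 1 was the highest of the 8 libraries for 28 of the 28 tested members. The lowest library was wild-type replicate 1 for 15 members and wild-type replicate 4 for 13. Set over each gene's wild-type mean, the median member stood at 2.96, 1.81, 2.01 and 2.01 in atf-6 replicates 1 to 4. The same median was 0.751, 1.12, 1.37 and 0.763 in wild-type replicates 1 to 4. In all 4 atf-6 libraries every tested member was above its wild-type mean, as were 27 of the 28 in wild-type replicate 3 and 22 in wild-type replicate 2. Part of this order was also seen outside the family. The muscle gene unc-54 had 2558, 2260, 1889 and 2070 CPM in atf-6 replicates 1 to 4. In wild-type replicates 1 to 4 it had 1706, 2085, 2592 and 1993 CPM. The 8 oocyte genes differed in this. rme-2, egg-1, perm-2 and perm-4 were highest in atf-6 replicate 1 among atf-6 libraries and in wild-type replicate 3 among wild-type libraries. chs-1 was the lowest of its strain in both of these libraries, and puf-5, cbd-1 and egg-2 had neither order. Over all tested genes, deviations from the strain mean correlated at 0.594 between atf-6 replicate 1 and wild-type replicate 3.

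**Figure D4:**
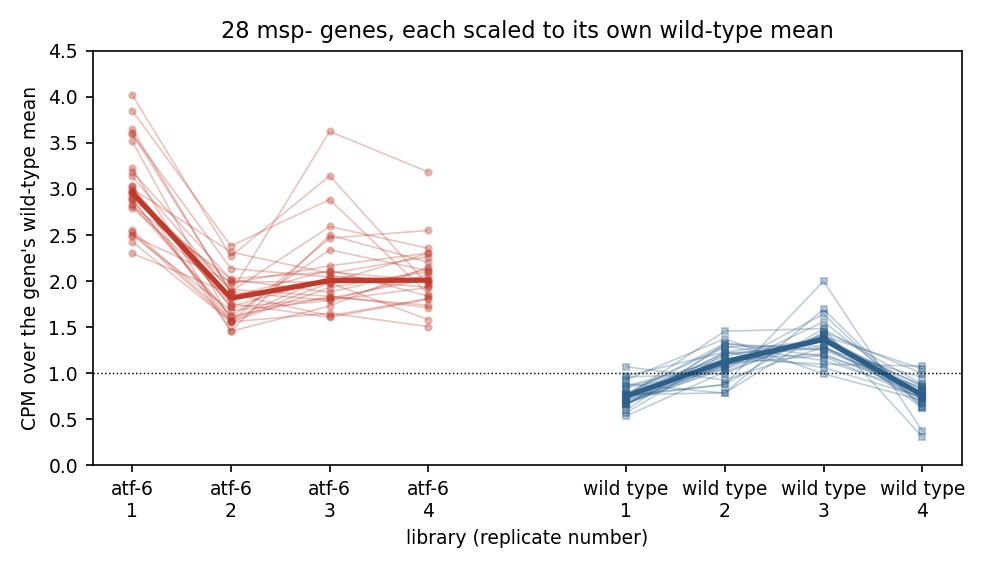
CPM of each of the 28 tested MSP genes over its own wild-type mean, by library (thin lines join the values of 1 gene within a strain, thick lines join the medians; replicate numbers have no order). The median stands at 2.96 in atf-6 replicate 1 and between 1.81 and 2.01 in the other atf-6 libraries, and between 0.751 and 1.37 in wild-type libraries.

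Most of the spread between libraries of 1 strain was common to the members, though the library order was in part seen outside the family too. The coefficient of variation of a member's CPM had a median of 25.8% among atf-6 libraries and 31.5% among wild-type libraries. That of its share of the family sum had a median of 9.54% among atf-6 libraries and 14.8% among wild-type libraries. Counting error alone, taken from the estimated counts, amounts to 7.71% for atf-6 libraries and 11.3% for wild-type libraries. It does not allow for reads split between the copies. The biological coefficient of variation that edgeR fitted per gene had a median of 0.213 for the members, 0.123 for the 3081 other genes in the same range of mean CPM and 0.110 for all genes tested. The median for the members was thus above that of other genes at the same level.

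Levels can be compared between members only per length, on the TPM scale of the per-sample files. By mean TPM over the 8 libraries msp-31 was the highest, at 58.6 ± 11.9 TPM in atf-6 worms and 25.6 ± 5.39 TPM in wild-type worms (SD, n = 4 each). msp-57 followed, at 49.4 ± 5.96 TPM in atf-6 worms and 21.0 ± 5.91 TPM in wild-type worms. By library, msp-31 was the higher of these 2 genes except in wild-type replicates 1 and 2, and the difference was not tested. Next in that order came msp-59, at 40.1 ± 6.13 TPM in atf-6 worms and 18.3 ± 3.28 TPM in wild-type worms, and then msp-45, at 34.2 ± 4.33 TPM in atf-6 worms and 14.7 ± 3.23 TPM in wild-type worms. The lowest tested member was msp-53, at 7.61 ± 2.34 TPM in atf-6 worms and 2.37 ± 0.652 TPM in wild-type worms. The transcripts used by the quantifier differ in length, and the effective lengths derived from them enter these values. msp-31 and msp-45 have transcripts of 384 bases, the shortest among the 29 members ranked, with effective lengths of 148 and 149 bases. For msp-57 the lengths are 455 and 228 bases. By mean CPM msp-45 had rank 12, so the order by TPM depends on these lengths. msp-58 and msp-74 have 234-base transcripts with effective lengths near 15 bases, and their TPM values are not used.

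How reads were divided among the copies sets a limit on every single member. Each member has 1 transcript in the files, and 28 of the 31 span 384 bp in the annotation. None of the 245 member-and-library values above 0 was a whole number of reads (tolerance 0.001), whereas 83.6% of the values above 0 of genes with a single transcript were whole. A value that is not whole can hold reads that the quantifier split between transcripts, so single members are less certain than the sums. Reads split this way can tie members to each other, so their agreement in direction, library order and shares is not that of independent genes. The same holds for agreement between clusters. Overlap in position adds to this for 4 members: msp-31 overlaps aagr-2 and msp-45 overlaps srb-13 on the same strand, and msp-33 overlaps gst-9 and msp-38 overlaps dhs-12 on opposite strands. The sources used here do not say whether counting used strand.

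Close neighbours among the members mostly face away from each other. There were 8 pairs at most 5 kb apart, made of 14 genes, with 5 head to head, 2 tail to tail and 1 on the same strand. The tested genes of these pairs had log2 fold changes of 1.07 to 1.61. The head-to-head pair msp-79 and msp-78 varied most among wild-type libraries. The CPM ratio of msp-78 to msp-79 was 1.29, 1.67, 1.38 and 2.48 in atf-6 replicates 1 to 4, against 1.42, 1.39, 1.89 and 6.76 in wild-type replicates 1 to 4. The high ratio in wild-type replicate 4 goes with the low msp-79 value in that library.

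The gene symbol table names 31 members, and RefSeq names 4 annotated pseudogenes as further msp copies. One of them, msp-52 (WBGene00003445, F36H12.6, chromosome IV, 5265592 to 5265921), lies in the left chromosome IV cluster. It had 8.10, 8.28, 9.86 and 8.11 CPM in atf-6 libraries, against 2.35, 5.60, 2.36 and 3.82 CPM in wild-type libraries. Its strains did not overlap, and the log2 fold change was 1.25 (SE 0.241, adjusted p = 0.0457 by edgeR), with a call in 1 of the 8 fits that leave out 1 library. The other pseudogene copies, msp-42, msp-71 and msp-37, had at most 10 counts in any library. The family sum with all 4 copies had the same log2 ratio of 1.14.

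Most of the other genes inside the cluster spans were not called, but the share called was above that of all genes. Of 184 tested genes that lie within the 4 spans and are not members, 12 rose (6.52%, against 0.711% of all genes) and 0 fell, with a median log2 fold change of 0.04. Besides msp-52, they include msd-2, described below, and the genes sss-1, nspd-2, nspd-3 and nsph-3.2. The number was 2 of 71 in the larger chromosome II cluster, 0 of 3 in the smaller one, 4 of 35 in the left chromosome IV cluster and 6 of 75 in the right one. Y59E9AR.7, in the left chromosome IV cluster, had the most counts of the 12, which were not compared per length, with 42.5, 29.6, 36.5 and 35.1 CPM in atf-6 libraries, against 10.9, 16.99, 20.4 and 9.77 CPM in wild-type libraries. All 4 atf-6 libraries lay above the wild-type ones, with a log2 fold change of 1.303 (SE 0.213, adjusted p = 0.0293 by edgeR), and it passed in 1 of the 8 fits with 1 library left out.

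Related proteins with an MSP domain are encoded by the msd and ssp genes and by vpr-1, a membrane protein of the VAP family with a cleaved and secreted MSP domain. Of 17 such genes in the table, 13 were tested, 4 rose and 0 fell, where 0.711% of all tested genes rose and 0.105% fell. The median log2 fold change over the 13 was 1.00. msd-4 (WBGene00016447) had 11.997, 7.58, 10.96 and 8.54 CPM in atf-6 libraries, against 4.40, 5.27, 5.92 and 4.05 CPM in wild-type libraries. It rose with the strains apart, by a log2 fold change of 0.99 (SE 0.175, adjusted p = 0.0343 by edgeR). msd-2 (WBGene00009682), ssp-16 and ssp-31 rose by log2 fold changes of 1.15 (SE 0.217), 1.18 (SE 0.230) and 1.49 (SE 0.273). None of these 4 held its call in all 8 fits that leave out 1 library: msd-4 kept it in 2, msd-2 in 1 and ssp-16 and ssp-31 in 0. Among those that did not pass, ssp-9 (WBGene00006038) had 12.1 ± 1.06 CPM in atf-6 worms and 5.32 ± 2.41 CPM in wild-type worms (SD, n = 4 each; log2 fold change 1.17, adjusted p = 0.0834 by edgeR). A second gene with that symbol, WBGene00006040, had 3.34 ± 2.84 CPM in atf-6 worms and 1.80 ± 1.28 CPM in wild-type worms (SD, n = 4 each). Its strains overlapped, with a log2 fold change of 0.79 (SE 0.627, adjusted p = 0.902 by edgeR). vpr-1, which is widely expressed, had 168 ± 2.47 CPM in atf-6 worms and 166 ± 9.42 CPM in wild-type worms (SD, n = 4 each), a log2 fold change of 0.01 (SE 0.0564). ssp-37 showed a log2 fold change of -0.02 (SE 0.152).

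The genes that pack MSP into fibrous bodies or drive its assembly gave no call in edgeR with the filter on low counts. The table holds 11 of them, 9 were tested, and edgeR called 0 higher and 0 lower. At an unadjusted p under 0.05 edgeR had 3 of the 9 higher (gsp-3, gsp-4 and spe-18), where 5.39% of all genes tested were, and 1 lower (wee-1.3), where 1.61% were. Without the filter edgeR called gsp-4 higher, and DESeq2 called gsp-4 higher and wee-1.3 lower. gsp-4, which encodes a sperm-specific PP1 phosphatase, had 4.86, 3.38, 2.87 and 4.96 CPM in atf-6 libraries, against 1.59, 2.40, 1.85 and 1.11 CPM in wild-type libraries. The strains were apart, with a log2 fold change of 1.20 (SE 0.261, adjusted p = 0.0796 by edgeR, adjusted p = 0.0253 by edgeR without the filter, adjusted p = 0.00850 by DESeq2). Its near-identical partner gsp-3 had 2.69 ± 0.380 CPM in atf-6 worms and 1.49 ± 0.571 CPM in wild-type worms (SD, n = 4 each; log2 fold change 0.82, SE 0.254, adjusted p = 0.295 by edgeR), and reads may be shared between the pair. spe-18, needed to form fibrous bodies, had 2.62 ± 0.655 CPM in atf-6 worms and 1.09 ± 0.528 CPM in wild-type worms (log2 fold change 1.22, SE 0.323, adjusted p = 0.175 by edgeR). spe-6, the casein kinase needed for MSP assembly, had 3.24, 2.97, 3.44 and 3.47 CPM in atf-6 libraries, against 3.04, 3.72, 3.50 and 2.72 CPM in wild-type libraries. Its libraries overlapped, and its log2 fold change was 0.02 (SE 0.145), with a sign that turned in 5 settings. wee-1.3, a Myt1 kinase with mutations that affect spermatogenesis, showed a log2 fold change of -0.15 (SE 0.0495, adjusted p = 0.357 by edgeR, adjusted p = 0.0265 by DESeq2). It had 178 ± 2.36 CPM in atf-6 worms and 198 ± 5.40 CPM in wild-type worms (SD, n = 4 each). Every atf-6 library lay below every wild-type library. This level was far above that of gsp-3, gsp-4, spe-18 and spe-6, and which cells of the whole worm gave it was not tested.

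The transcription factors elt-1, a GATA factor that binds msp promoters, and spe-44, a regulator of sperm gene expression, did not pass. elt-1 had 10.5, 10.3, 9.19 and 9.87 CPM in atf-6 libraries, against 8.66, 8.10, 7.39 and 8.16 CPM in wild-type libraries. The strains did not overlap, but the log2 fold change was 0.30 (SE 0.0943, adjusted p = 0.315 by edgeR). elt-1 also acts in the hypodermis, so its level in whole worms is not that of the germ line alone. spe-44 had 16.1 ± 1.05 CPM in atf-6 worms and 16.3 ± 1.40 CPM in wild-type worms (SD, n = 4 each), a log2 fold change of -0.02 (SE 0.0910).

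Genes that receive or relay the MSP signal in oocytes and sheath cells gave 0 calls among 16 tested. Their median log2 fold change was -0.04 and their range ran from -0.13 (dab-1) to 0.20 (acy-4), with 0 at an unadjusted p under 0.05 in edgeR and 0 called by DESeq2. vab-1, the Eph receptor that binds MSP, had 148, 153, 136 and 148 CPM in atf-6 libraries, against 155, 164, 153 and 148 CPM in wild-type libraries. Its strains overlapped, with a log2 fold change of -0.08 (SE 0.0582, adjusted p = 0.892 by edgeR). dab-1, an endocytic adaptor, had 349 ± 11.002 CPM in atf-6 worms and 381 ± 13.7 CPM in wild-type worms (SD, n = 4 each; log2 fold change -0.13, SE 0.0575, adjusted p = 0.714 by edgeR). The strains did not overlap for dab-1, with every atf-6 library below every wild-type library. unc-43, the CaM kinase II, showed a log2 fold change of 0.15 (SE 0.0804), and gsa-1 and ceh-18, a stimulatory G-protein subunit and a homeodomain factor of the sheath, had 0.16 (SE 0.105) and 0.18 (SE 0.114).

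**Figure D5:**
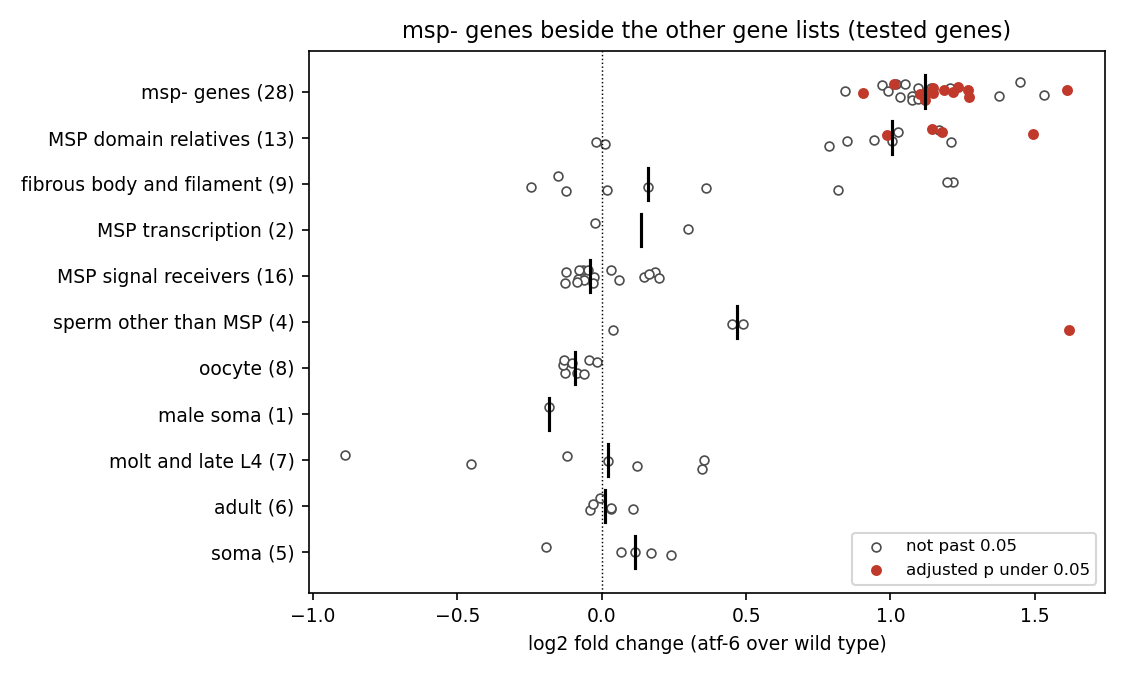
Log2 fold change (atf-6 over wild type) of the tested MSP genes and of the tested genes of 10 other lists (1 point per gene, vertical bars at the list median, number of genes in parentheses; filled points had an edgeR adjusted p under 0.05). The MSP genes and most of their MSP domain relatives lie near 1, and the medians of the MSP signal receivers, oocyte and adult lists lie between -0.09 and 0.01.

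Markers of sperm other than MSP and of other cell types and stages were read beside the family. Of 12 other sperm genes in the table only 4 were tested. Of all tested genes 0.711% rose, and of the 4 sperm genes 1 did. This was spe-11, whose product the sperm brings into the egg for the first divisions, with 2.21, 1.75, 1.39 and 1.39 CPM in atf-6 libraries, against 0.456, 0.706, 0.318 and 0.599 CPM in wild-type libraries (log2 fold change 1.62, SE 0.278, adjusted p = 0.0327 by edgeR). The strains did not overlap, and the call held in 1 of the 8 fits with 1 library left out. spe-15, a myosin VI, and fer-1, a membrane-fusion protein of the sperm, did not pass, with log2 fold changes of 0.49 (SE 0.155) and 0.45 (SE 0.355). cpb-1, a spermatogenesis RNA-binding protein, had 0.04 (SE 0.0679).

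Of 10 genes of male somatic cells, cwp-1 and cwp-3 were at 0 counts in all 8 libraries and 9 were under 1 CPM in every library, the exception being plg-1. The list summed to 4.64 to 6.18 CPM in atf-6 libraries and 4.93 to 7.07 CPM in wild-type libraries. Among 7 molting and late larval genes 0 passed. noah-1, an extracellular matrix protein of molting, had 9.39 ± 1.04 CPM in atf-6 worms and 7.42 ± 0.782 CPM in wild-type worms (SD, n = 4 each; log2 fold change 0.35, adjusted p = 0.392 by edgeR), with the strains apart. bli-1, a collagen, showed a log2 fold change of -0.89 (SE 0.561, adjusted p = 0.863 by edgeR). The list summed to 41.8 to 46.5 CPM in atf-6 libraries and 39.4 to 44.8 CPM in wild-type libraries.

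Among the 8 oocyte genes 0 passed and the median log2 fold change was -0.09. egg-2, a receptor of the oocyte surface needed for sperm entry, had 258 ± 10.2 CPM in atf-6 worms and 283 ± 7.35 CPM in wild-type worms (SD, n = 4 each; log2 fold change -0.13, SE 0.0547, adjusted p = 0.644 by edgeR). For egg-2 the strains were apart, with every atf-6 library below every wild-type library. Adult markers, the vitellogenins and the adult collagen col-19, summed to 80602 to 98819 CPM in atf-6 libraries and 80722 to 103372 CPM in wild-type libraries. Of the 5 tested genes of muscle, intestine and neurons 0 passed, and myo-3, a muscle myosin, had the smallest p (log2 fold change 0.24, SE 0.0801, adjusted p = 0.372 by edgeR). The part of stage or of the share of sperm-forming cells in the MSP difference was not tested.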

How the data were processed

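Per the labels' protocols, RNA of whole worms went into stranded TruSeq mRNA libraries and was read on an Illumina NextSeq500. Gene by gene, the authors deposited estimated counts in 1 table, in whole numbers and not scaled for library size, and a second table of normalized signal. The second equals the first up to 1 factor per library and was not used further. For each sample, per the file headers, a transcript file gives estimated counts (reads), TPM and the effective length for 58105 transcripts. Tools named in the submitters' processing notes are STAR 2.5.3a, Salmon 0.9.1 and DESeq2 1.19.51, with build WBcel235 and without roles. Table columns were tied to samples through the library number in each sample's own file.

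Estimated counts, already whole, were tested with edgeR 4.0.16 (R 4.3.3). After filterByExpr, which kept 12375 genes, and TMM scaling, a robust quasi-likelihood model of strain was fitted, and two-sided p-values were adjusted by Benjamini-Hochberg over all genes. SE is the size of the log2 fold change over the root of the F statistic. CPM values use TMM-scaled library sizes. Depth was 12664222 to 21698298 estimated counts per library. Symbols came from a gene name table (43540 identifiers) and positions from the Ensembl annotation of WBcel235.

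Alternatives were RLE and upper-quartile scaling, other count filters, DESeq2 1.42.0, limma-voom (limma 3.58.1), the replicate block, plain sums of transcript reads, a threshold of 0.01 and leaving out each library. The members and lists were chosen with earlier results of these data known. Named with values per library were the 4 members of highest mean CPM, the 4 of smallest adjusted p and those under the filter. In each list, up to 4 genes of smallest p were named, and always vab-1, spe-6, elt-1, gsp-3 and gsp-4. No sequences are shown.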

Additional observations from a re-analysis of the deposited data

Results flagged for a closer look

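In each group of 4 libraries the highest or lowest value was set against the gap to its nearest neighbour, and 9 of 72 such tests stood out, where chance gives about 1 in 20. Members of 1 family share their libraries, so these tests are not independent. In 8 of the 9, atf-6 replicate 1 was far above the other atf-6 libraries. Its values were 8.98 CPM for msp-3, 14.4 CPM for msp-152, 9.64 CPM for msp-49, 21.3 CPM for msp-19, 13.9 CPM for msp-58, 17.2 CPM for msp-36 and 6.48 CPM for msp-38. The right chromosome IV cluster summed to 117 CPM in the same library. The other was msp-56 in wild-type replicate 3, at 3.25 CPM and far above the other wild-type libraries.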

How the results depend on the processing

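The direction of the family did not depend on the processing: none of the 28 tested members turned sign in any of 18 settings, their log2 fold changes ran from 0.67 to 2.10, and the log2 ratio of the family sum ran from 0.97 to 1.304. The number of members called did depend on it. It was 13 with edgeR, with RLE or upper-quartile scaling, with at least 10 counts in 4 libraries and with limma-voom, 14 without a filter, 26 with DESeq2, 1 with plain sums of transcript reads (msp-57) and 0 at a threshold of 0.01. When 1 library was left out it ran from 0 to 18, being 2, 4, 3 and 0 without atf-6 replicates 1 to 4 and 1, 2, 18 and 0 without wild-type replicates 1 to 4. No member was called in all 8 of these fits, with msp-57 called in 5 and msp-19 in 4. The share of all genes called higher moved as well. It was 0.711% in the main fit, 0.0954% to 0.724% with 1 library left out and 0.544% without a filter. With DESeq2 that share was 1.24%, with plain sums of transcript reads 0.244% and at a threshold of 0.01 0.0889%. Of the 4 called companion genes (MSP domain relatives, fibrous body, transcription and receiver lists), the count was 7 without a filter, 8 with DESeq2, 0 with plain sums of transcript reads and 0 at a threshold of 0.01, and 0 to 3 with 1 library left out. The cause of these shifts was not tested.

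With the replicate number as a block, 0 members and 0 companion genes were called (lowest adjusted p of a member 0.290 by edgeR), where 0.0242% of all genes were called higher. The median log2 fold change of the members was 1.14, and the family log2 ratio was 1.15. The numbers gave no sign of pairing: same-numbered libraries had correlations of deviations from -0.52 to 0.11, and 0 of the 4 atf-6 libraries correlated best with its own number. Other differences between libraries enter these correlations too, so they cannot decide whether same-numbered samples were handled together. The log2 fold change of spe-6, 0.02, was -0.0044 with DESeq2, -0.0075 and -0.011 without atf-6 replicates 3 and 4, and -0.010 and -0.066 without wild-type replicates 1 and 4, in a range of -0.066 to 0.098 with 1 library left out. Joining neighbours at most 100 kb apart gave 7 clusters, and 21 members reached a mean of 10 on the TPM scale (msp-58 and msp-74 left out), against 4 on the CPM scale. Summing members of identical protein sequence was not run, since no protein sequences were used here.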
